A study of Homo sapiens with 24 samples.

Results

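Small nucleolar RNAs, small Cajal body RNAs, spliceosomal RNAs and 7SK RNA were followed in human leukaemia cells taken from blood, spleen and bone marrow of the same mice. Members were all probes whose gene symbol begins with SNORD, SNORA, SCARNA or RNU and a digit, together with RN7SK. This gave 321 of the 47231 probes on the array, for 315 gene symbols: 178 SNORD, 102 SNORA, 24 SCARNA and 15 RNU probes and 2 RN7SK probes. A signal above background, meaning a detection p under 0.01, was found on at least 3 of the 24 arrays for 123 of the 321 probes, and only these entered the tests below.

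The cells were OCI-AML3, an established human acute myeloid leukaemia line, so each result describes 1 line. Cells carrying luciferase and GFP had been grown in NSG mice, which lack T, B and NK cells of their own but keep mouse myeloid and red blood cells, and had been sorted on GFP and human CD45. The arrays cover 3 control mice harvested on day 42, 3 mice treated for 24 h and harvested on day 41, and 2 mice treated for 72 h and harvested on day 43, each with 1 array from blood, 1 from spleen and 1 from femoral marrow. Treatment was a daily injection under the skin of 2.5 mg/kg LY2510924, a CXCR4 inhibitor that the sample characteristics spell LY2510294. Harvest day and treatment cannot be told apart.

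Box C/D RNAs (SNORD) guide 2′-O-methylation of ribosomal RNA and box H/ACA RNAs (SNORA) guide its pseudouridylation, while small Cajal body RNAs (SCARNA) guide the same marks on spliceosomal RNAs. Most of them are cut out of introns of host genes, many of which encode ribosomal proteins or proteins of translation. A minority have a promoter of their own: the U3 RNA copies (SNORD3), which are needed to cut the precursor of 18S ribosomal RNA, SNORD13, the spliceosomal RNAs (RNU1, RNU4, RNU6, and RNU11 and RNU4ATAC of the minor spliceosome) and 7SK RNA, which holds the elongation factor P-TEFb inactive. The labelling kits used here prime complementary DNA with oligo(dT), which pairs with runs of A. A signal may come from a tailed or unprocessed form, from host intron RNA or from the mature RNA. Which of these a probe read was not tested. Where an RNA is called higher or lower below, the signal of its probe is meant.

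The start sites of some host genes are shown as background on the hosts. Whether they bear on the site differences was not tested. Of the members inside measured ribosomal protein genes, 22 of 25 were lower in blood than in marrow. In other measured hosts 21 of 57 members were lower, and among all tested probes 24.6% were. Starting at a run of pyrimidines is the known mark of genes for ribosomal and translation proteins. A run of at least 8 bases made of C and T alone, on the gene strand within 20 bases of the annotated start, was found in 15 of 18 ribosomal protein host genes (83.33%). It was found in 48 of all 129 host genes with a promoter entry (37.21%) and in 5703 of 27305 genes of the whole table (20.89%). Each line below runs from 50 bases before the start to 50 bases after it, from RefSeq on build GRCh38.p14, with the longest run of C and T near the start in capitals, whatever its length.
RPS12, chr6:132814519-132814618, plus strand: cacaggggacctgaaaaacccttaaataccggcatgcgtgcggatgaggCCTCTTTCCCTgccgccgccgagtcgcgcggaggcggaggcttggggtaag
EEF1B2, chr2:206159845-206159944, plus strand: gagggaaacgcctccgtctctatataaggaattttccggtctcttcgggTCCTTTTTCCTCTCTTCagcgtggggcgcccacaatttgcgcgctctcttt
SNHG12, chr1:28581824-28581923, minus strand: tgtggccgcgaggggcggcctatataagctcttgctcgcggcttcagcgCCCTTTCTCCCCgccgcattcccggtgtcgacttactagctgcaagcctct
EEF1B2, other start, chr2:206159559-206159658, plus strand: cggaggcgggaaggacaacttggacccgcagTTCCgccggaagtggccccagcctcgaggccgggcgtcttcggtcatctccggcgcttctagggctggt
SNHG1, chr11:62855836-62855935, minus strand: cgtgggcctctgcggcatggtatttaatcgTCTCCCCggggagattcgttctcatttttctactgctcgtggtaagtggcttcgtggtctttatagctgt
HSPA8, chr11:123062087-123062186, minus strand: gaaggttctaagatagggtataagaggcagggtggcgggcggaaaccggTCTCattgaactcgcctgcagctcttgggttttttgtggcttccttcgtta
RPL3, chr22:39319574-39319673, minus strand: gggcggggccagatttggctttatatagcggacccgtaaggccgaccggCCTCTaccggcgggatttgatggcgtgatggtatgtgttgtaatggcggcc
The longest run is 11 bases in RPS12 and 12 in SNHG12, and 17 at 1 start of EEF1B2 but 4 at its other start. It is 7 bases in SNHG1, 4 in HSPA8 and 5 in RPL3, which do not reach 8 although they also hold members that fell. RPS12 hosts SNORD100 and SNORA33, EEF1B2 hosts SNORA41, and SNHG12, a non-coding host, holds SNORA16A and SNORA61. SNHG1 hosts SNORD31, HSPA8 hosts SNORD14D, and RPL3 hosts SNORD139. The octamer ATGCAAAT, searched on both strands from 250 bases before to 50 after the start, was in 3 of the 129 host genes (2.33%) and 2.19% of all genes. The TATA box TATAAA, searched in the same way, was in 18 of the 129 (13.95%) and 13.99% of all genes.

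A few members also contain an annotated microRNA hairpin. These 2 are printed from RefSeq (GRCh38.p14) because their small RNA differed between sites, with the bases that lie inside the small RNA gene in capitals.
MIR1291 in SNORA2C, chr12:48654444-48654530, minus strand: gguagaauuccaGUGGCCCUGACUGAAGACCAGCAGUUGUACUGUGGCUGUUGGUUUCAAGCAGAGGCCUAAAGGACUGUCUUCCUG
MIR1843 in SCARNA3, chr1:175968370-175968479, minus strand: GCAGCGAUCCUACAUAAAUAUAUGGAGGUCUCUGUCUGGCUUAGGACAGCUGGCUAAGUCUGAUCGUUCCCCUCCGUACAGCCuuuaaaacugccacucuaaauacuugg
In SNORA2C the overlap covers 75 of the hairpin's 87 bases, and in SCARNA3 it covers 83 of 110. A signal of either probe therefore need not be the small RNA alone.

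Arrays detected between 13066 and 15721 probes, and between 77 and 111 of the small RNA probes (84 to 97 in blood, 77 to 98 in spleen and 82 to 111 in marrow). The OCI-AML3 list was read unevenly: MEIS1 was detected on 24 arrays, ANPEP on 21 and PTPRC, which encodes the CD45 used in the sort, on 13, while NPM1 and MPO were detected on none. Of 13 T and NK cell markers 7 were never detected, CD3D, CD3E, CD3G and LCK among them, yet the summed signal of the list was 3691 to 11010 in blood, 2169 to 10470 in spleen and 1183 to 3988 in marrow. Of 13 red cell markers 7 were never detected, and their sum was 1864 to 20640 in blood, 18200 to 21260 in spleen and 9217 to 22080 in marrow. The B cell sum was 161.6 to 300.6 in blood, 149.2 to 260.9 in spleen and 149.2 to 216.6 in marrow with 3 of 5 markers never detected. The macrophage sum was 718.8 to 1727 in blood, 806.4 to 1621 in spleen and 699.6 to 1320 in marrow with 0 of 7 never detected. Of the markers bright enough to test, 5 of 5 red cell genes were lower in blood than in marrow (median -0.83), 4 of 5 T and NK cell genes were higher and 1 lower (median 0.82), and of 6 macrophage genes 2 were higher and 2 lower. Whether these marker signals came from other cells or from the line itself was not tested, nor was their part in the site differences below. In bulk RNA, fewer cells of a kind and less RNA per cell cannot be told apart.

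Between blood and marrow, calls differed in direction between members with a promoter of their own and the rest. This is a description, with no test of the groups. Over the treatment groups together, most RNAs with a promoter of their own were higher in blood, U3 RNA by more than 10-fold. Most members that changed inside host genes were lower in blood. Of the 123 tested members 27 were higher in blood than in marrow and 54 were lower (limma with the mouse as a block, Benjamini-Hochberg adjusted p under 0.05 over 17116 probes). Among all tested probes 19.4% were higher and 24.6% lower, 44% in either direction. A probe could pass the detection filter through a single site. SNORD13, SCARNA2, SCARNA21 and SNORA16A, detected on no marrow array, passed it without marrow. SNORA2C, detected on no blood array, passed it without blood. The calls of such members are not independent of the filter. Of 15 members with a promoter of their own 13 were higher and 0 lower, with a median difference of 1.35 on the log2 scale. Within single treatment groups 3 of the 15 were called higher in control mice, 12 at 24 h and 6 at 72 h. The medians there were 0.43, 2.19 and 1.83. The 15 count near copies and second probes of a gene separately. These 15 were taken by symbol and so include RNU105C, a copy of a box C/D RNA, and leave out SCARNA2 and SCARNA17, which are known to have promoters of their own. With RNU105C moved out and those 2 moved in, a grouping chosen after the values were seen, 15 of 16 were higher and 0 lower (median 1.57), and of the other 107 members 12 were higher and 54 lower. Of the other 108 members 14 were higher and 54 lower, with a median of -0.48, against a median of -0.03 over all tested probes. All values that follow are normalised log2 intensities, and differences are blood minus marrow unless another pair is named. The counts within each of the BeadChips, the glass carriers that hold the arrays, were 17 higher and 35 lower on the first and 13 higher and 28 lower on the second.

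**Figure D1:**
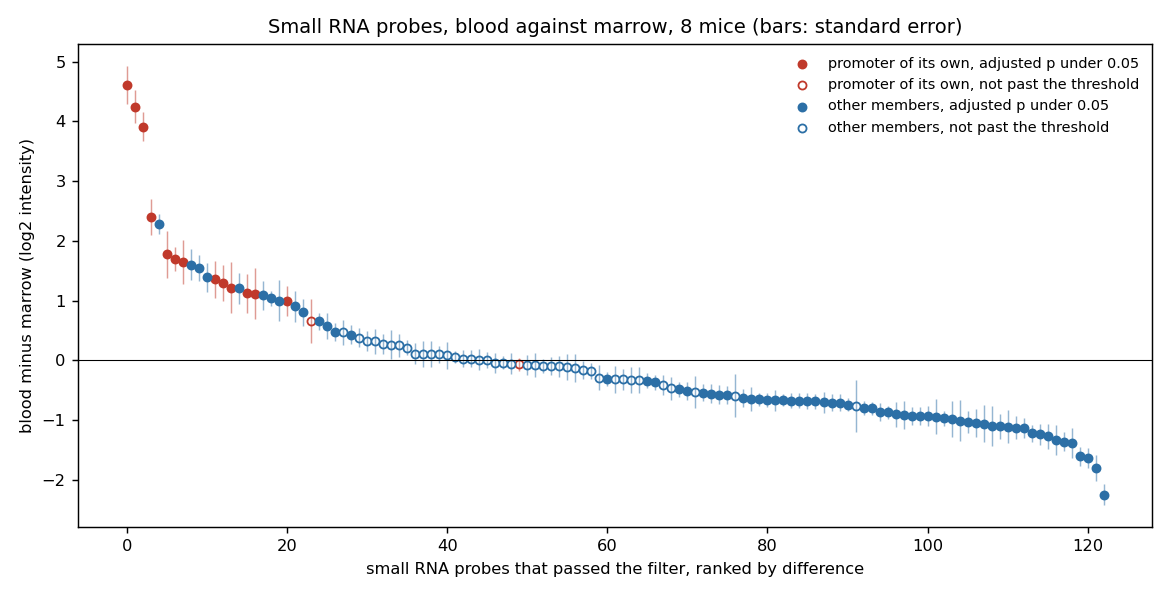
Difference between blood and marrow (log2 intensity, vertical axis) of the 123 tested small RNA probes, ranked from highest to lowest, with standard errors over 8 mice. Filled points passed an adjusted p of 0.05, and the 15 probes in red are those grouped by symbol as having a promoter of their own, RNU105C among them, of which 13 lie above zero and passed.

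U3 RNA gave the largest differences between blood and marrow among these members. SNORD3A read 11.86 at the lowest, 12.88 at the median and 14.18 at the highest on the 8 blood arrays, against 8.45, 8.90 and 9.77 on the 8 marrow arrays. SNORD3D read 11.12, 12.31 and 14.14 on the blood arrays, against 7.35, 8.20 and 8.98 on the marrow arrays. SNORD3C read 10.38, 11.89 and 14.09 in blood, against 6.57, 7.34 and 8.43 in marrow. For each of these probes the lowest blood array lay above the highest marrow array. The differences were 3.91 ± 0.25 for SNORD3A, 4.24 ± 0.27 for SNORD3D and 4.61 ± 0.32 for SNORD3C (SE, 8 mice, adjusted p in limma of 1.29e-07, 1.42e-07 and 3.17e-07), which is 15.1-fold, 18.9-fold and 24.4-fold. They were positive in 8 of 8 mice. The copies are nearly identical in sequence, so the 3 probes may read the same RNA and are not independent. Within a BeadChip SNORD3A differed by 4.05 on the first and 3.78 on the second.

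SNORD13, which guides acetylation of 18S ribosomal RNA, was detected on 5 of 8 blood arrays and on 0 of 8 marrow arrays. Its blood arrays ran from 5.0 through a median of 6.35 to 10.20, and it was at least 1.98-fold higher in blood (mean 6.94 in blood and 5.17 in marrow, adjusted p in limma of 0.00233).

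7SK RNA was higher in blood on both of its probes. The brighter probe read 10.46, 11.74 and 13.86 (lowest, median, highest) in blood, against 9.33, 10.32 and 11.16 in marrow. The dimmer probe read 7.76, 9.59 and 12.61 in blood, against 6.78, 7.24 and 8.77 in marrow. The site ranges overlapped on both probes, but each of the 8 mice was higher in blood than in its own marrow. The differences were 1.70 ± 0.20 on the brighter probe (adjusted p in limma of 2.13e-05) and 2.40 ± 0.29 on the dimmer one (adjusted p in limma of 2.68e-05).

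Spliceosomal RNAs were higher in blood on average, with a wide spread between mice. RNU4-2, the U4 RNA that pairs with U6 before splicing, read 6.44, 7.93 and 10.33 in blood, against 5.64, 6.64 and 7.21 in marrow. Its difference was 1.65 ± 0.37 (adjusted p in limma of 0.00244), positive in 7 of 8 mice and running from -0.04 to 3.94 between mice. RNU1-1, the U1 RNA that recognises the 5′ splice site, differed by 1.35 ± 0.31 (adjusted p in limma of 0.00287) and was higher in 8 of 8 mice. RNU6-1, the U6 RNA of the catalytic core, differed by 1.00 ± 0.25 (adjusted p in limma of 0.00473), also in 8 of 8. In the minor spliceosome RNU4ATAC differed by 1.30 ± 0.30 (adjusted p in limma of 0.00296), although it was detected on only 4 of 8 blood arrays and 1 of 8 marrow arrays. The RNU11 probes passed by a small margin (1.22 ± 0.43 and 1.11 ± 0.43, adjusted p in limma of 0.031 and 0.047) and were higher in 4 and 6 of 8 mice. RNU4-1, with a difference of 0.66 ± 0.37, did not pass (adjusted p in limma of 0.165), nor did RNU105C, which despite its symbol is a copy of the box C/D RNA U105. RNU1-1 and RNU1-3 are near copies, as are RNU4-1 and RNU4-2.

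Small Cajal body RNAs had 5 of 10 tested members higher in blood and 0 lower. SCARNA17 read 5.53, 7.38 and 10.03 in blood, against 5.40, 5.96 and 6.81 in marrow, a difference of 1.54 ± 0.22 (adjusted p in limma of 1.00e-04). SCARNA9 differed by 1.39 ± 0.25 (adjusted p in limma of 5.10e-04) and SCARNA18 by 0.47 ± 0.15 (adjusted p in limma of 0.0203). SCARNA2 was detected on 4 blood arrays and 0 marrow arrays and was at least 1.26-fold higher in blood (blood mean 6.29, marrow mean 4.69, adjusted p in limma of 2.33e-04). SCARNA21, detected on 3 blood arrays and 0 marrow arrays, was at least 1.10-fold higher. SCARNA2 and SCARNA17 are the pair left out of the own-promoter group by symbol.

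Box H/ACA RNAs changed mostly downwards, with 25 of 48 tested members lower in blood and 4 higher. The exception with the widest gap was SNORA16A, which was detected on 8 of 8 blood arrays and on 0 of 8 marrow and 0 of 8 spleen arrays. Its blood arrays ran from 6.02 to 8.10 with a median of 7.03, against 4.68 to 4.97 in marrow, and no blood array came near a marrow array. It was at least 2.18-fold higher in blood than in marrow (means 7.09 in blood and 4.80 in marrow, adjusted p in limma of 4.51e-07). It had passed the detection filter through blood alone, the site where it was higher, so this p is not independent of the filter. SNORA57 differed by 1.04 ± 0.13 and SNORA29 by 0.65 ± 0.14, and SNORA78 by 0.80 ± 0.22.

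The H/ACA RNA with the largest fall was SNORA41. It read 5.16, 6.32 and 6.98 in blood, against 6.90, 8.23 and 8.60 in marrow. It was lower in 8 of 8 mice, by -1.80 ± 0.21 (adjusted p in limma of 1.97e-05), and only 1 blood array reached into the range of marrow. SNORA33 differed by -1.38 ± 0.25 and SNORA3B by -1.28 ± 0.21, both lower in 8 of 8 mice. SNORA73A and both probes of SNORA73B, near copies of an RNA needed for 18S processing, differed by -0.98 to -1.10 and were lower in 7 of 8 mice. SNORA2C, host of the MIR1291 hairpin printed above, was detected on 0 blood arrays and 4 marrow arrays (blood mean 5.25, marrow mean 5.95, adjusted p in limma of 0.00571). No fold is given for it, since its blood signal is only a bound.

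Among box C/D RNAs without a promoter of their own, 29 of 50 were lower in blood and 5 higher. SNORD100 read 4.74, 7.61 and 8.23 in blood, against 8.46, 9.67 and 10.20 in marrow. Every blood array lay below every marrow array. The difference was -2.25 ± 0.17 (adjusted p in limma of 5.71e-07), lower in 8 of 8 mice and 4.75-fold in size. SNORD14A, a copy of U14 RNA that takes part in 18S processing, read 6.60, 8.21 and 8.65 in blood, against 8.14, 9.49 and 10.76 in marrow. Its difference was -1.64 ± 0.16 (adjusted p in limma of 5.29e-06). SNORD31 differed by -1.60 ± 0.16, SNORD139 by -1.36 ± 0.16, SNORD21 by -1.33 ± 0.25, SNORD34 by -1.24 ± 0.17 and SNORD35A by -1.23 ± 0.14, each lower in 8 of 8 mice. Of the U14 copies in HSPA8, SNORD14D differed by -1.01 ± 0.35 and SNORD14C, at -0.77 ± 0.43, did not pass (adjusted p in limma of 0.161). The copies may cross-hybridise.

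**Figure D2:**
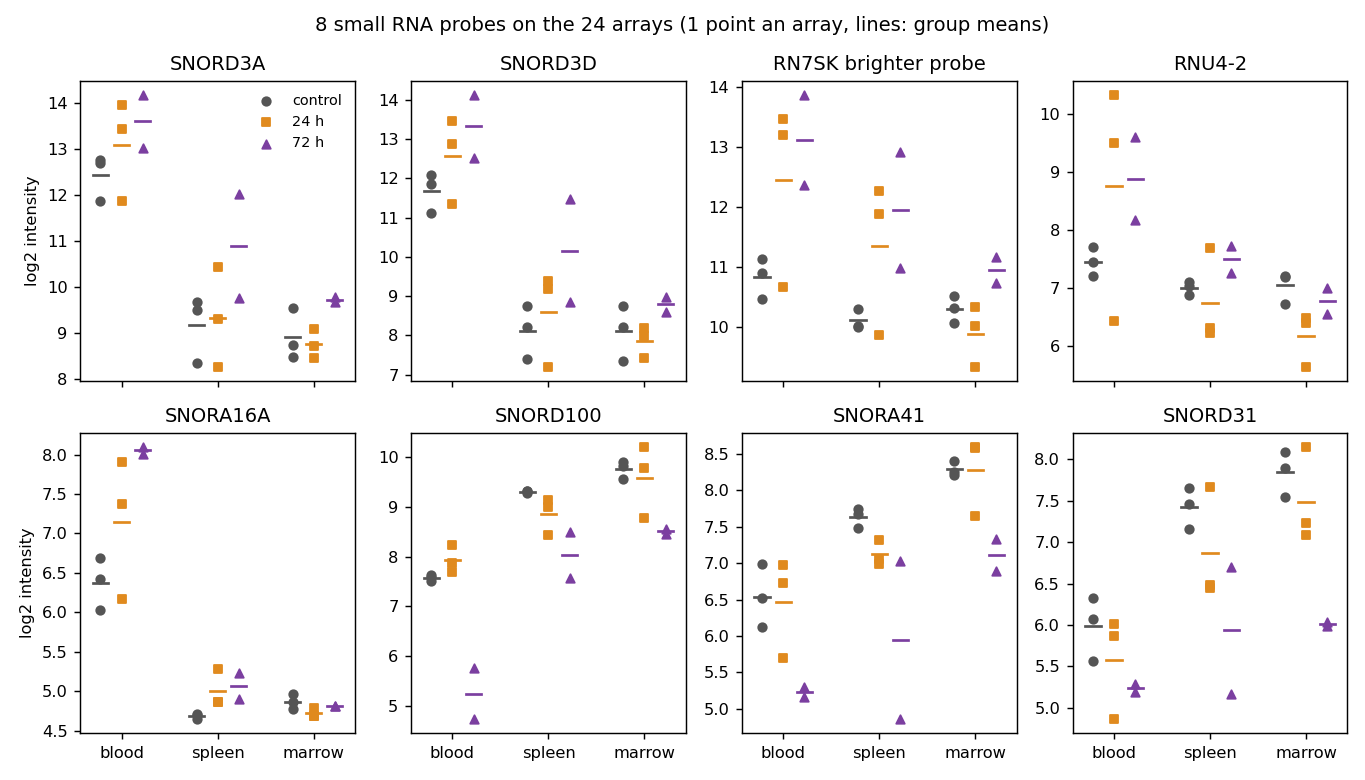
Normalised log2 intensity (vertical axis, its own range in each panel) of 8 small RNA probes on each of the 24 arrays, by site and by treatment, with a line at each group mean. SNORD3A, SNORD3D and SNORA16A sit higher in blood in every treatment group, RN7SK and RNU4-2 spread upwards in blood of treated mice, and SNORD100, SNORA41 and SNORD31 sit lower in blood.

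Members inside host genes did not simply follow the host's own probe. Of the 108 tested members without a promoter of their own, 106 lie within a RefSeq gene and 82 lie in a host that was itself measured (59 hosts). Strand was not compared, and a host's probe reads its spliced transcript. Both member and host were lower in blood for 17 of the 82. The member alone was lower for 24, and for 2 the member was lower while the host was higher. In the other direction, 4 members were higher while their host was lower, 4 were higher without a call for the host, and 1 was higher with its host (SNORA78 in SNHG9).

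Members inside ribosomal protein genes lay below their hosts at the median, which members in other hosts did not. The median of member minus host was -0.58 for the 25 members there and 0.10 for the 57 in other hosts, as a description with no test. Of 25 members in those that were measured 22 were lower in blood and 1 was higher, with a median of -1.03, while 4 of the 16 host genes were lower and 0 higher, with a median of -0.20. Members in other hosts included 21 of 57 lower and 8 higher, with a median of -0.32, beside a median of -0.28 for their 43 hosts. Among all tested probes 24.6% were lower and 19.4% higher, so the 4 of 16 ribosomal protein hosts lie near the share of all probes. RPS12, which encodes a protein of the small ribosomal subunit, differed by -0.01 ± 0.08 (adjusted p in limma of 0.957), whereas SNORD100 and SNORA33 in its introns fell as given above. EEF1B2, a subunit of translation elongation factor 1, differed by -0.05 ± 0.08 (adjusted p in limma of 0.656) beside the fall of SNORA41. RPS13, the host of SNORD14A, differed by -0.18 ± 0.11 (adjusted p in limma of 0.225). The difference between member and host was not itself tested.

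**Figure D3:**
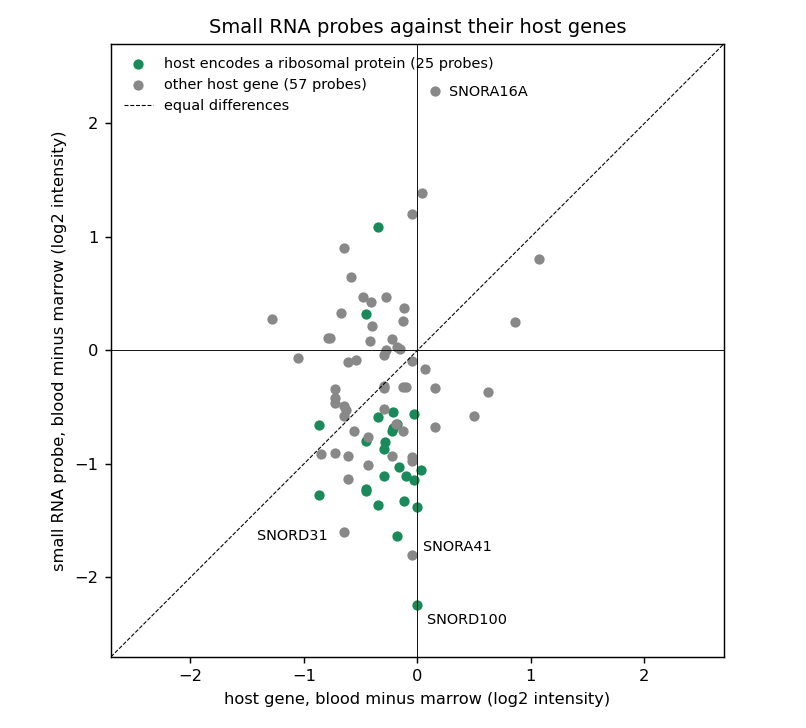
Blood minus marrow difference of each small RNA probe (vertical axis, log2 intensity) against that of its host gene (horizontal axis, same unit), for 82 probes in 59 measured hosts. The 25 probes in ribosomal protein hosts, in green, lie mostly below the dashed line of equal differences, and SNORA16A lies far above it.

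Members of 1 host could also go opposite ways. In SNHG1, a non-coding host that was lower, at -0.65 ± 0.11, SNORD31, SNORD30 and SNORD22 were lower in blood (-1.60, -0.58 and -0.49) and SNORD25 was higher by 0.91 ± 0.26. In SNHG12, whose own probe differed by 0.15 ± 0.10, SNORA16A was higher and SNORA61 was lower, at -0.68 ± 0.13. In RPL3 SNORD43 was higher by 1.09 ± 0.24 and SNORD139 was lower, at -1.36 ± 0.16.

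Among genes of the proteins that make and use these RNAs, more were lower in blood than higher, in each of the lists below. The shares over all tested probes, 19.4% higher and 24.6% lower, apply to each list, and nothing particular to a list was tested. Of 8 core proteins of small nucleolar particles 6 were lower and 1 higher: DKC1, the pseudouridine synthase of H/ACA particles, differed by -0.89 ± 0.10, GAR1 by -0.91 ± 0.15 and NOP56, of box C/D particles, by -0.61 ± 0.11, while NOP10 was higher by 0.66 ± 0.11. Of 17 assembly and transport factors 9 were lower and 1 higher, led by SHQ1, an H/ACA assembly factor, at -1.23 ± 0.13. Of 24 proteins of the U3 processome 16 were lower and 0 higher, with RCL1 at -1.40 ± 0.16 and NAT10, the enzyme that SNORD13 guides, at -0.61 ± 0.10. The other 8 of the 24 did not pass. Of 29 spliceosomal snRNP proteins 14 were lower and 0 higher, with SNRPD1 at -1.46 ± 0.15.

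Among 25 genes for small RNA transcription 8 were lower and 3 higher, with a median of -0.14 against -0.03 over all tested probes. SNAPC1 and SNAPC2, subunits of the complex that binds snRNA promoters, were higher by 1.14 ± 0.20 and 0.86 ± 0.17, while ICE2, of the little elongation complex, was lower, at -1.03 ± 0.15. Of 19 genes of small RNA trimming and decay 10 were lower and 1 higher, TOE1, a nuclease that trims snRNA ends, among the lower at -0.63 ± 0.11. In the 7SK particle HEXIM1, which inhibits P-TEFb when bound to 7SK, was higher by 0.93 ± 0.15 and LARP7, which binds the end of 7SK, was lower, at -0.66 ± 0.14. Of the 8 genes in that list 2 were higher and 3 lower. Of 15 non-coding host genes 5 were lower and 1 higher.

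Blood also stood apart from spleen. Among the 123 members 25 were higher in blood than in spleen (8.82% of all tested probes were) and 17 lower (11% of all tested probes), and all 10 calls among members with a promoter of their own were higher in blood. The split was 19 higher and 34 lower with the authors' background-subtracted values and 20 higher and 29 lower with scaling to the array median. All probes moved likewise: of those called, 44.4% were higher in blood in the quantile-normalised values. The share was 4.43% with the authors' values and 11.58% with median scaling. SNORD3C differed between blood and spleen by 3.91 ± 0.32, SNORD3D by 3.63 ± 0.27 and SNORD3A by 3.31 ± 0.25, each in 8 of 8 mice (adjusted p in limma of 1.17e-05, 6.81e-06 and 6.81e-06). SNORA16A, which passed the filter through blood alone, was at least 2.28-fold higher in blood than in spleen. SNORD100 differed by -1.68 ± 0.17 and SNORD31 by -1.19 ± 0.16. SCARNA3, with the MIR1843 hairpin, differed by 0.46 ± 0.14 (adjusted p in limma of 0.0363). The higher count was 14 without mouse 1 and 15 without mouse 6. The lower count was 9, 11, 8 and 27 without mouse 4, 5, 6 and 8.

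Spleen differed less from marrow. Only the 2 RN7SK probes were higher in spleen than in marrow (5.11% of all tested probes were), and 21 members were lower (4.38% of all tested probes), all 21 without a promoter of their own. The RN7SK probes read 10.64 and 8.30 at the median in spleen, against 10.32 and 7.24 in marrow, for the brighter and the dimmer one. They differed by 0.72 ± 0.20 and 1.28 ± 0.29 (adjusted p in limma of 0.0359 and 0.0135). SNORA28 had the largest fall, at -1.15 ± 0.20, with spleen arrays at 4.71, 6.12 and 7.12 and marrow arrays at 6.06, 7.62 and 8.11 (lowest, median, highest). SNORA41 differed by -0.97 ± 0.21, SNORD139 by -0.83 ± 0.16 and SNORD4A by -0.78 ± 0.15, each lower in 8 of 8 mice. Of the 21, 13 lie in ribosomal protein hosts that were themselves measured. The higher count was 0 without mouse 1 or 2 and 1 without mouse 8, and the lower count was 6 without mouse 1 and 13 without mouse 4 or 5. Scaling to the array median left 3 lower calls and the authors' background-subtracted values left 1, and the median over all tested probes was then 0.09 and 0.13, against -0.02 in the quantile-normalised values.

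Within the treatment groups, the calls among the 15 RNAs with their own promoter were counted apart. In control mice 3 of the 15 were higher in blood than in marrow, the SNORD3 copies (3.52 ± 0.41, 3.83 ± 0.52 and 3.59 ± 0.45 for SNORD3A, SNORD3C and SNORD3D). In mice treated for 24 h 12 of 15 were higher, and in mice treated for 72 h 6 of 15. The medians over the 15 were 0.43 in control mice, 2.19 at 24 h and 1.83 at 72 h. These counts come from unequal numbers of mice, and the test of the difference between treatment groups, given below, passed for no member. Over all members there were 4 higher and 36 lower in control mice (6.96% and 5.8% of all tested probes), 24 higher and 39 lower at 24 h (14.3% and 18.6%), and 17 higher and 16 lower at 72 h (5.14% and 8.02%). Spleen and marrow differed for 0 members in control mice (0.351% of all tested probes were called, and 9 members had an unadjusted p under 0.05 in limma) and for 0 at 72 h (0.204%, with 29 members at an unadjusted p under 0.05 in limma). The percentages are for the adjusted p. No share of all tested probes at an unadjusted p under 0.05 is given here or below, so the member counts at that level stand alone. At 24 h 2 members were higher in spleen than in marrow and 7 lower (5.38% and 5.56% of all tested probes). Between blood and spleen 4 were higher in blood and 4 lower in control mice (2.68% and 1.44%), 7 higher and 3 lower at 24 h (0.467% and 0.502%), and 9 higher and 4 lower at 72 h (1.14% and 1.85%). Counts over the 3 pairs of sites together were 48 in control mice, and 26, 16 and 9 without mouse 4, 5 and 6. They were 82 at 24 h, 25 without mouse 1 and 52 without mouse 2, and 46 at 72 h, 17 without mouse 8 and 74 without mouse 9.

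RNU4-2 may serve as an example of the spread between mice. In blood it read 7.45, 7.20 and 7.70 in control mice, 10.33, 9.50 and 6.44 at 24 h, and 9.60 and 8.16 at 72 h. In marrow it read 7.19, 6.73 and 7.21 in control mice, 6.39, 5.64 and 6.48 at 24 h, and 7.0 and 6.56 at 72 h. Mouse 3, of the 24 h group, had the lowest blood value of all, while the other treated mice lay above every control mouse in blood. The brighter RN7SK probe likewise read 10.89, 10.46 and 11.13 in blood of control mice, 13.19, 13.46 and 10.67 at 24 h, where the last is mouse 3, and 13.86 and 12.36 at 72 h.

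Whether the site differences depended on treatment was tested directly, with an F test over both differences from marrow. No member passed for 24 h against control (0.111% of all tested probes did, and 22 members had an unadjusted p under 0.05 in limma) or for 72 h against control (0.263% of all tested probes did, and 31 members had an unadjusted p under 0.05 in limma). These percentages are for the adjusted p and cannot be set against the member counts at the unadjusted p. RNU105C had the smallest adjusted p at 24 h (0.065 in limma) and SNORD49A at 72 h (0.0893 in limma). Without mouse 3 the count for 24 h was 22, and without mouse 9 the count for 72 h was 33. The counts therefore rest on single mice.

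**Figure D4:**
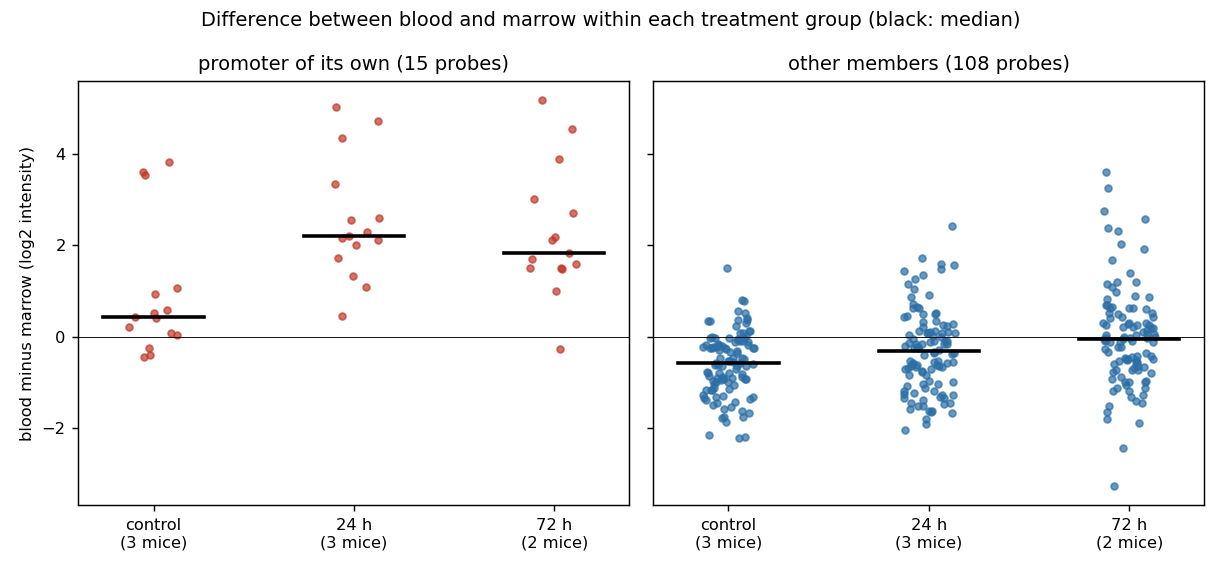
Blood minus marrow difference (vertical axis, log2 intensity) of each tested small RNA probe within control mice, mice treated for 24 h and mice treated for 72 h, for the 15 probes grouped by symbol as having their own promoter (RNU105C included, SCARNA2 and SCARNA17 not) and the 108 others, with black lines at the medians. The medians of the 15 are 0.43, 2.19 and 1.83, and no member passed the test of a change in site difference.

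Treatment for 24 h left 0 members past the threshold over the sites together (0.473% of all tested probes passed, and 15 members had an unadjusted p under 0.05 in limma, which used 1 value per mouse). Without mouse 3 the count was 4. Within a site 0 members passed in blood (0.0175% of all tested probes) and in marrow (0.158%), with 22 and 6 at an unadjusted p under 0.05 in limma. Here too the percentages are for the adjusted p only. In spleen 1 was higher and 3 lower (4.93% and 4.78% of all tested probes): SCARNA3 by 0.80 ± 0.25, RNU105C by -0.80 ± 0.20, SNORA64 by -0.90 ± 0.23 and SNORD57 by -1.20 ± 0.36. The 4 calls within sites numbered 44 without mouse 3, 1 without mouse 1 or 2, 0 without any of the control mice 4, 5 and 6, and 9 without mouse 8 or 9.

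Treatment for 72 h was followed by 6 members higher and 18 lower than in control mice over the sites together (8.34% and 11.8% of all tested probes). The split was 2 and 28 with the authors' background-subtracted values and 4 and 28 with scaling to the array median. Of all probes called, 41.44% were higher at 72 h in the quantile-normalised values. That share was 7.71% with the authors' values and 18.1% with median scaling. SNORD14A fell furthest relative to its error. In blood it read 8.44, 7.99 and 7.61 in control mice, 8.65, 8.51 and 8.54 at 24 h, and 6.60 and 6.79 at 72 h. In spleen it read 8.91, 8.95 and 9.21 in control mice, 9.17, 9.54 and 9.51 at 24 h, and 7.27 and 7.75 at 72 h. In marrow it read 9.45, 9.48 and 9.97 in control mice, 10.43, 9.51 and 10.76 at 24 h, and 8.14 and 8.53 at 72 h. At every site both mice treated for 72 h lay below all control mice and all mice treated for 24 h. The difference from control was -1.38 ± 0.18 over the sites (adjusted p in limma of 0.0188), and it passed within blood (-1.31 ± 0.30), spleen (-1.51 ± 0.30) and marrow (-1.30 ± 0.30). Against 24 h it was -1.89 ± 0.18 (adjusted p in limma of 0.0109), and -1.82 ± 0.33 with the BeadChip as a block (adjusted p in limma of 0.439).

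SNORD100 showed a like order. In blood it read 7.58, 7.51 and 7.63 in control mice, 8.23, 7.69 and 7.88 at 24 h, and 4.74 and 5.76 at 72 h, without overlap. Over the sites it differed between 72 h and control by -1.61 ± 0.23 (adjusted p in limma of 0.0235). SNORA41 differed by -1.39 ± 0.29, SNORD31 by -1.36 ± 0.33, SNORA33 by -1.17 ± 0.26, SNORD38A by -1.17 ± 0.27 and SNORD57 by -1.11 ± 0.25. The higher ones were the dimmer RN7SK probe at 2.54 ± 0.72, SCARNA9 at 1.40 ± 0.40, SNORA16A at 0.67 ± 0.20, SNORD65 at 0.60 ± 0.15, RNU4ATAC and SCARNA2. RNU4ATAC was at least 1.65-fold and SCARNA2 at least 1.21-fold higher, since neither was detected on any of the 9 control arrays. Both passed the detection filter through treated mice alone. SNORA16A was detected on 2 of 6 arrays at 72 h and 3 of 9 control arrays, all from blood, so that its mean over sites is largely one of values at background. SNORD65 was detected on 3 of 6 and 3 of 9. These calls were fragile: of the 24, the count was 0 without mouse 1, 4, 5, 6 or 8, 45 without mouse 3, 41 without mouse 9, and 0 with the BeadChip as a block or within the second BeadChip, where 2 mice of each group lie. SNORD14A kept a difference of -1.35 with the BeadChip as a block, where its adjusted p in limma was 0.0988.

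Within blood, 19 members were higher and 13 lower at 72 h than in control mice (13.3% and 17.4% of all tested probes), and 7 higher and 9 lower with the authors' background-subtracted values. Of all probes called there, 43.26% were higher in the quantile-normalised values and 18.03% with the authors' values. SCARNA2 read 5.0, 5.35 and 5.26 in control mice, 6.58, 6.64 and 4.95 at 24 h, and 9.91 and 6.67 at 72 h, the first being mouse 8. It was detected on none of the 3 control arrays and was at least 5.42-fold higher at 72 h. RNU4ATAC, also detected on 0 control arrays, was at least 3.21-fold higher. The dimmer RN7SK probe differed by 3.42 ± 0.96 and SCARNA17 by 2.65 ± 0.71. SNORD100, detected on neither array at 72 h, was at least 2.88-fold lower. SNORA25 was lower, at -1.96 ± 0.45, as were SNORD57 at -1.73 ± 0.40 and SNORD52 at -1.62 ± 0.49. The blood array of mouse 8 decided most of these calls: of the 32, 2 were still called without it. Using the blood arrays alone for the spread left 0 of the 32.

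In marrow 0 members were higher and 4 lower at 72 h than in control mice (1.08% and 0.789% of all tested probes): SNORD14A, SNORD31 at -1.83 ± 0.44, SNORD30 at least 1.07-fold and SNORA65 at least 1.13-fold, both detected on neither array at 72 h. In spleen SNORD14A alone was lower (0.315% of all tested probes were) and 0 were higher (0.304%). Calls over the sites taken singly numbered 37, and 71 without mouse 3, 10 without mouse 4 or 5, 16 without mouse 6, 4 without mouse 8 and 97 without mouse 9.

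All mice treated for 72 h lie on the second BeadChip and all treated for 24 h on the first, so that only the control mice, which lie on both, link them. Between 72 h and 24 h 1 member was higher and 11 lower over the sites together (7.57% and 9.83% of all tested probes). SNORD65 was higher by 0.61 ± 0.15, and the largest falls after SNORD14A were SNORD100 at -1.52 ± 0.23, SNORA41 at -1.19 ± 0.29 and SNORA33 at -1.13 ± 0.26, and SNORA75, detected on 0 arrays at 72 h, was at least 1.34-fold lower. The 12 calls became 0 without mouse 1, 5 or 6, 1 without mouse 4 or 8, 6 without mouse 3, 30 without mouse 2 and 29 without mouse 9. With the BeadChip as a block 0 of these calls over the sites were made, and 3 within sites. Within blood SNORD100, detected on neither array at 72 h, was at least 3.69-fold lower. SNORD57 differed by -2.47 ± 0.40, and SNORA25 by -1.93 ± 0.45 there, while SCARNA2 was higher by 2.24 ± 0.62 and SNORD65, detected on 0 arrays at 24 h, was at least 1.33-fold higher. SCARNA7 was also lower, with no array above background at 72 h and so no fold. In all, 2 were higher and 5 lower there (2.8% and 4.36% of all tested probes). In spleen SNORA63 was higher by 1.82 ± 0.49 and 6 were lower (6.06% and 5.76% of all tested probes), among them SNORD14A, SNORD1A at -1.49 ± 0.35 and SNORA75, at least 1.44-fold lower and detected on neither array at 72 h. In marrow SNORD14A and SNORA2C (at least 1.36-fold, detected on neither array at 72 h) were lower and 0 higher (2.59% and 1.62% of all tested probes). Calls over the sites taken singly numbered 16, and 48 without mouse 2, 8 without mouse 4 or 5, 9 without mouse 6, 4 without mouse 8 and 61 without mouse 9. Comparisons of 72 h with control and with 24 h share the mice treated for 72 h.

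Members that did not pass the filter include RNU2-1 and RNU5A-1, detected on 1 and 2 of 24 arrays. When all 321 members were fitted without the filter, 25 were higher and 59 lower in blood than in marrow (6.43% and 8.2% of all 47231 probes), and 12 of the 21 with a promoter of their own were higher and 0 lower.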

How the data were processed

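The authors deposited, per the file headers, a table of mean bead intensity on a linear scale without background subtraction, with a detection p-value beside each intensity, the share of negative control beads at least as bright. GenomeStudio is named in the submitters' processing notes; its version and the genome build are not given in the sources used here. The deposited series matrix holds intensity after subtraction of a constant per array. From the deposited intensity, log2 values were computed here in R 4.3.3 by the neqc function (limma 3.58.1, background correction through detection p, offset 16, quantile normalisation). Probes with a detection p under 0.01 on at least 3 of 24 arrays were kept, 17116 in all, and tested probe by probe with Benjamini-Hochberg adjustment, two-sided, at 0.05.

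Arrays of 1 mouse pair by the number in their titles. As a check, the mean correlation of deviations was 0.272 for the 24 array pairs of 1 mouse, against -0.155 for 42 pairs of different mice of a treatment. Site comparisons and the tests of site by treatment had the mouse as a fixed block. Treatment comparisons over sites used the mean of each mouse's 3 arrays, and those within a site used group means of 24 arrays. Signed comparisons numbered 24, beside the 2 site by treatment tests, and fits were tested on simulated data. Arrays count no molecules, so that their number limits the precision. The labels do not say more of the mice than their numbers.

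Where all arrays of 1 side lacked detection, folds read "at least": values there below the lowest detected signal of their array were raised to it. Protein genes stand by their brightest tested probe. Symbols came from the platform listing, and all 321 matched RefSeq. Hosts are the smallest containing RefSeq gene, with strand not compared. No member had an entry in the promoter table used.

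Named were SNORD3 and RN7SK probes, the 10 largest rises and falls of each site comparison, the 5 largest of each treatment comparison, and of each protein list up to 4 genes with the smallest p. Other members named as copies, classmates or neighbours in a host were chosen after their values were seen. Members, classes, lists and tests were chosen with earlier results of these data known.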

Additional observations from a re-analysis of the deposited data

How the results depend on the processing

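Blood against marrow was the firmest comparison. Over all other settings its 27 higher members became 11 and its 54 lower ones 18 when a probe had to be detected on all arrays, and 17 and 35 within the first BeadChip and 13 and 28 within the second, where fewer mice enter. Leaving out 1 mouse gave 20 to 28 higher and 46 to 57 lower. None of the 107 member differences picked by the naming rule changed sign under any setting that could give a value, but 249 of 856 values without 1 mouse no longer passed. Other settings cost more of these named differences. With the BeadChip as a block 34 of 50 no longer passed, and with the arrays of that site alone 25 of 34. Within the second BeadChip 41 of 82 did not pass, and without the filter 37 of 107 did not. Among all called members, 1 of 81 changed sign within the first BeadChip for blood against marrow. For blood against spleen 1 of 42 did so there. Estimation of array weights stopped before full convergence in some fits. Spleen against marrow gave, for its 2 higher members, 0 without the filter, 1 with 1 probe per gene, 0 with a random replicate block and 0 within each BeadChip (0 to 3 without 1 mouse), and for its 21 lower ones 1 with the background-subtracted values, 3 with median scaling, 34 with array weights and 0 within each BeadChip (6 to 31 without 1 mouse). Blood against spleen gave, for 25 higher, 12 when detected on all arrays and 3 and 5 within the BeadChips (14 to 28 without 1 mouse), and for 17 lower 34 with background-subtracted values, 29 with median scaling, 7 when detected on all arrays and 0 and 5 within the BeadChips (8 to 27 without 1 mouse). With no replicate block, and so without the pairing by mouse, spleen against marrow gave 0 higher and 10 lower, blood against spleen 10 higher and 8 lower, and site calls were 54 at 24 h and 17 at 72 h. Site calls in control mice (48) were 25 with background-subtracted values, 30 when detected on all arrays, 132 with array weights and 0 and 21 within the BeadChips (9 to 72 without 1 mouse). Those at 24 h (82) were 39 when detected on all arrays, 136 with array weights and 54 within the first BeadChip (25 to 112). Those at 72 h (46) were 19 with background-subtracted values, 28 with median scaling, 21 when detected on all arrays, 9 with array weights, 18 without the blood array of mouse 8 and 22 within the second BeadChip (17 to 74). Over the sites together, 24 h against control gave 73 for 0 with array weights (0 to 4 without 1 mouse). Within sites its 4 calls were 0 with background-subtracted values, 2 with median scaling, without the filter or with the arrays of that site alone, 7 with 1 probe per gene or without the blood array of mouse 8, 28 with array weights, 0 within the first BeadChip and 1 with the BeadChip as a block (0 to 44). For 72 h against control the 24 calls over sites were 4 without the filter, 6 when detected on all arrays and 0 within the second BeadChip or with the BeadChip as a block (0 to 45). Within sites the 37 calls were 18 with background-subtracted values, 21 without the filter, 13 when detected on all arrays, 8 without the blood array of mouse 8 and 24 within the second BeadChip (4 to 97). For 72 h against 24 h the 12 calls over sites were 4 with background-subtracted values, 3 without the filter, 5 when detected on all arrays, 20 with array weights and 0 with the BeadChip as a block (0 to 30). Within sites the 16 calls were 4 with background-subtracted values, 10 when detected on all arrays, 30 with array weights, 3 with the BeadChip as a block and 38 with the arrays of that site alone (4 to 61). Site by treatment at 24 h gave, for 0, 1 with 1 probe per gene, with a random replicate block or without the blood array of mouse 8, and 38 with array weights (0 to 22). At 72 h it gave 0 to 33 without 1 mouse. The cause of these moves was not tested, except that the BeadChip and 1-mouse settings hold fewer samples and the stricter filter fewer probes. Without mouse 8 or 9 the remaining mouse treated for 72 h is assumed to vary like the other groups. For members near background the signal sets a floor under every fold.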
